A study of Mus musculus with 20 samples.

Results

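Of the 21450 genes in the deposited count table, 10 encode carriers that move bile acids and other organic anions across the membranes of the liver cell. They were taken by symbol, with every probe kept, which gave 23 of the 30146 probes of the table. The genes are Slc10a1, Slco1a1, Slco1a4, Slco1b2 and Slco2b1, whose products take anions up from the blood, Abcb11, Abcc2 and Abcg2, whose products pump them into bile, and Abcc3 and Abcc4, whose products return them to the blood. In all, 22 of the 23 probes passed the filter on low counts. The probe that did not is Abcg2 probe 30082, with 0 to 7 counts in a library.

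The livers came from male Balb-C mice of 10 to 12 weeks that received Nafion BP2 by gavage once a day for 7 days. Nafion BP2, also written PFESA-BP2, is a perfluorinated ether sulfonic acid that arises as a by-product of a fluoropolymer membrane. The groups were vehicle control (0 mg/kg), 0.03, 0.3, 3 and 6 mg/kg, each with 4 livers from individual animals. The vehicle is not settled here, since it is deionized water in the protocol and DMSO in the control titles. RNA was measured with TempO-Seq, in which a pair of detector oligos is ligated side by side on the target RNA, amplified and counted. Values are counts for every 1000000 counts (CPM) on libraries scaled by the trimmed mean of M values, and a call means an edgeR quasi-likelihood adjusted p under 0.05 over all 14122 probes tested. Probes capture their targets with unequal efficiency, so levels were compared within a probe only.

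Bile acids made in the hepatocyte are pumped into the canaliculus by Abcb11, flow to the gut, and come back in portal blood, where Slc10a1 and the Slco carriers take them up again. Abcc3 and Abcc4 sit on the blood side of the hepatocyte, hold little of the traffic in a healthy liver, and are known to rise in cholestasis. Several of these genes are known targets of the nuclear receptors FXR, PXR and CAR and of NRF2, which binds the antioxidant response element.

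Totals ran from 6823518 to 10310931 counts per library, so that 3 counts corresponded to 0.251 to 0.511 CPM. Libraries correlated with the others of their group at a mean of 0.942 or more, except replicate 4 at 3 mg/kg (0.87) and replicate 4 at 6 mg/kg (0.94). Where leaving out these 2 livers changed a call described here, both values are given. The control and 0.03 mg/kg libraries and 3 of the 0.3 mg/kg libraries lay in plate row A, and the other 0.3 mg/kg library and all 3 and 6 mg/kg libraries in row B, so plate row and the 2 high doses cannot be told apart except through the 0.3 mg/kg group. In bulk tissue, fewer cells of a type and less RNA per cell cannot be told apart.

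The promoters of 4 genes are shown because the most abundant probe of each was called at 6 mg/kg, with the start of transcription just after the last base. The sequences are the 250 bases before the RefSeq start on GRCm38.p6, read 5′ to 3′ on the gene's strand, and capitals mark matches to the motifs searched. Entries were found for 9 of the 10 genes, 15 in all, and Abcc3 is named only. The windows are Abcc2 chr19:43782058-43782307 on the plus strand, Abcc4 chr14:118706220-118706469 on the minus strand, Slco1b2 chr6:141629268-141629517 on the plus strand and Slco1a4 chr6:141856221-141856470 on the minus strand. The GENCODE gene model of Abcc2 begins inside its window, upstream of both marked matches, which thus lie inside that gene model.
Abcc2: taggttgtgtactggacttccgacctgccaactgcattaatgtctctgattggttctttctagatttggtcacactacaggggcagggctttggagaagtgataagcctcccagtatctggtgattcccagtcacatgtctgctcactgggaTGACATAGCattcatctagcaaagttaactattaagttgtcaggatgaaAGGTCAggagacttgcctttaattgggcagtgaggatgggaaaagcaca
Abcc4: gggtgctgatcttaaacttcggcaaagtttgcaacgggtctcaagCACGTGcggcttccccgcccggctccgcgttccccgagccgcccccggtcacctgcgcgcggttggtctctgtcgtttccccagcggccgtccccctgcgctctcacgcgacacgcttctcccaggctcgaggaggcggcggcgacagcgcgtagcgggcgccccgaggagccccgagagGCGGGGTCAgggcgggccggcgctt
Slco1b2: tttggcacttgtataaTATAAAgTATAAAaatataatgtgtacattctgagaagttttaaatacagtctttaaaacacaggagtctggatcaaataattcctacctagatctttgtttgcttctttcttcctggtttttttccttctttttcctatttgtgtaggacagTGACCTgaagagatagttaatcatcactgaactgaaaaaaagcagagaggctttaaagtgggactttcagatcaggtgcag
Slco1a4: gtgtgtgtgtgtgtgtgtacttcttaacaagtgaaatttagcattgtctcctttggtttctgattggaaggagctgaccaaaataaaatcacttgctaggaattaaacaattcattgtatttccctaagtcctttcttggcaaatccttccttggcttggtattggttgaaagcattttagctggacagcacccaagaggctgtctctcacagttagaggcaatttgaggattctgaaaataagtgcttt

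The core of the antioxidant response element, TGACNNNGC on either strand, was found in Abcc2, 98 bases before the start, and in Abcc4, 25 bases before it. The second Abcc4 entry holds it too, so that 3 of the 15 entries had it, against 10.2% of 32851 promoters of the same length. The nuclear receptor motif AGGTCA was in 7 of 15 entries, among them Abcc2 and Slco1b2, against 14.0% of all promoters. The E-box CACGTG stood 205 bases before the Abcc4 start and was in 6.02% of all promoters. The TATA box TATAAA was in Slco1b2 on the plus strand, 234 and 227 bases before the start, and was in 12.4% of all promoters. The Slco1a4 window held none of these letters, nor did the 3 entries of Slco2b1, whose call at 6 mg/kg was on a sparse probe and which are not shown. The motifs were searched on both strands and do not overlap with each other in the windows shown. These matches describe the letters and not sites of binding.

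At 6 mg/kg, the basolateral efflux genes Abcc3 and Abcc4, the canalicular pump gene Abcc2 and the uptake gene Slco1a4 rose, as did 1 sparse probe of Slco2b1, and the uptake gene Slco1b2 fell. In all, 9 of the 22 tested probes passed, 7 higher and 2 lower, against 20.3% of all probes tested (11.6% higher and 8.73% lower). By role, all 4 basolateral probes were higher (median log2 fold change 2.65), 1 of 8 canalicular probes was higher (median 0.01), and 2 of 10 uptake probes were higher and 2 lower (median -0.10). Among the basolateral probes, those of Abcc4 passed the filter on low counts only through the high-dose livers, probe 77278 only through 6 mg/kg. The filter itself thus favoured their rise. The 6 mg/kg livers did not overlap with the controls on 9 probes that were higher and 3 that were lower, against 13.2% and 13.6% of all probes. The median over all 22 was 0.20, against 0.01 over all probes. A plate row term can be set only by the 0.3 mg/kg livers, through replicate 4 in row B against the rest of that group. With this term 1 of the 22 was still called, and the other 8 had the same sign as before and edgeR adjusted p of 0.076 to 0.332. Their log2 changes under that term were 2.67 and 3.87 for Abcc3, 2.28 and 3.97 for Abcc4, 2.09 for Slco1a4, 2.39 for Slco2b1 and -1.14 and -0.64 for Slco1b2. At 3 mg/kg 1 of the 22 passed, upward, against 1.49% of all probes (1.11% higher and 0.382% lower), and 4 lay above all controls, against 3.35% of all probes. At 0.3 and 0.03 mg/kg none passed by edgeR, against 0% of all probes. At those low doses 1 member probe each had an unadjusted p under 0.05, against 8.32% of all probes at 0.3 mg/kg and 3.24% at 0.03 mg/kg, and DESeq2 called none of the 22 either.

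**Figure D1:**
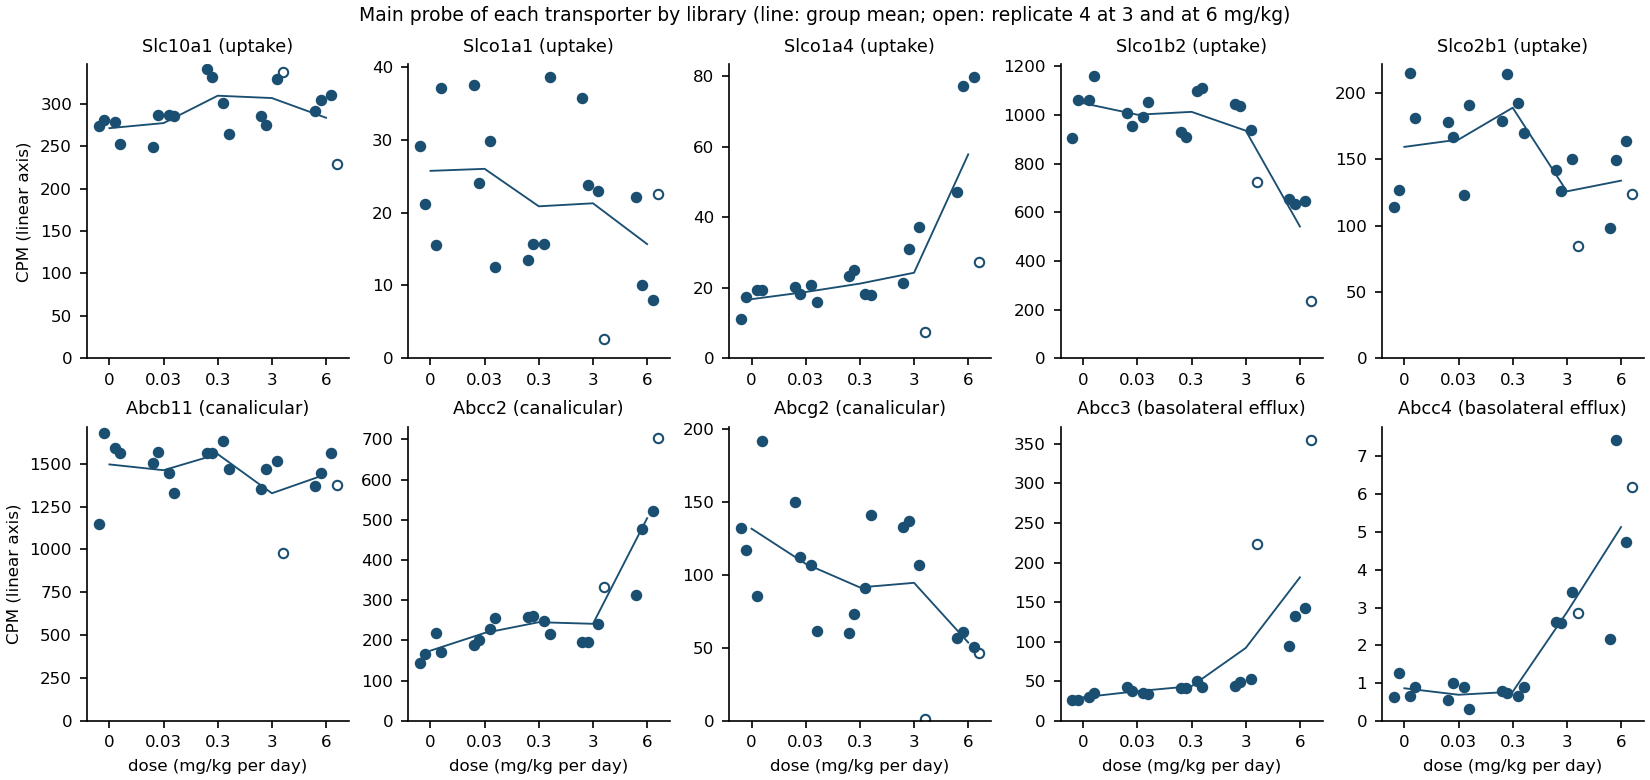
The CPM of the most abundant probe of each transporter gene (vertical axes, linear, from 0) by dose in mg/kg per day, with 1 point per liver, lines through the group means and open points for replicate 4 at 3 and at 6 mg/kg. The 6 mg/kg livers lie above all controls for Slco1a4, Abcc2, Abcc3 and Abcc4 and below all controls for Slco1b2 and Abcg2, while Slc10a1 and Abcb11 overlap.

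Abcc3 (chr11:94343295-94392997, minus strand, GRCm38), the basolateral carrier of glucuronides and bile salts, had 95.1, 133, 142 and 355 CPM on probe 65055 in the 6 mg/kg livers, against 26.3, 26.9, 30.6 and 35.3 CPM in the controls. The groups did not overlap, and the highest value at 6 mg/kg was that of replicate 4. The difference was 2.60 on the log2 scale (SE 0.47, edgeR adjusted p = 0.000723), a 6.08-fold higher level. Its second probe, 30114, averaged 36.1 ± 23.8 CPM at 6 mg/kg and 3.67 ± 0.668 CPM in controls (SD, n = 4 each), a log2 change of 3.29 (SE 0.56, edgeR adjusted p = 0.000464). Without replicate 4 at 6 mg/kg the changes were 2.03 on probe 65055 and 2.71 on probe 30114, both called.

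At 3 mg/kg, Abcc3 probe 65055 had 43.9, 48.5 and 53.0 CPM in 3 livers and 223 CPM in replicate 4. All 4 livers lay above the controls, and replicate 4 lay 4.20 times above the highest of the others. The log2 change of 1.63 (SE 0.45) missed the threshold (edgeR adjusted p = 0.0921). It was 0.70 without that liver (edgeR adjusted p = 0.429), and 0.70 and called without both livers that stood apart (edgeR adjusted p = 0.00464). With all livers it was called with DESeq2 (1.63, adjusted p = 0.00831) but not with limma-voom (1.27, adjusted p = 0.195). It also passed without replicate 1 at 3 mg/kg (1.92, edgeR adjusted p = 0.0414). At 0.3 mg/kg the 4 livers had 41.1 to 49.9 CPM, also above all controls, with a log2 change of 0.56 (SE 0.45, edgeR adjusted p = 0.754). At that dose 3.33% of all probes were higher with no overlap. Probe 30114 was at 1.83 at 3 mg/kg (SE 0.55, edgeR adjusted p = 0.132), with no overlap. It was called with DESeq2 (1.82, adjusted p = 0.0153) but not with limma-voom (1.37, adjusted p = 0.311). Without replicate 4 at 3 mg/kg it was at 0.65 (edgeR adjusted p = 0.708).

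Abcc4 (chr14:118482692-118706219, minus strand), which exports bile salts together with glutathione on the same side, was sparse. On probe 30363 the 6 mg/kg livers had 2.16, 4.73, 6.20 and 7.43 CPM, against 0.624, 0.647, 0.909 and 1.27 CPM in controls. These stand for 18 to 62 counts at 6 mg/kg and 5 to 9 counts in controls, and the groups did not overlap. The log2 change was 2.58 (SE 0.36, edgeR adjusted p = 3.87e-05). Probe 77278 averaged 2.73 ± 0.474 CPM at 6 mg/kg and 0.414 ± 0.151 CPM in controls (SD, n = 4 each), at 2.70 (SE 0.51, edgeR adjusted p = 0.000847). This probe had 17 to 30 counts at 6 mg/kg and 2 to 4 in controls. The control counts lie at the floor of 3 counts, so the size of this rise is uncertain. Counts were 0 to 5 at 0.03, 1 to 5 at 0.3 and 2 to 13 at 3 mg/kg. Probe 77278 thus passed the filter on low counts only through the 6 mg/kg livers. Probe 30363 passed it through the 3 and 6 mg/kg livers, with at most 10 counts in a library at lower doses. For both probes the filter itself favoured a rise.

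Abcc4 probe 30363 was the member that passed at 3 mg/kg. Its livers had 2.59, 2.63, 2.86 and 3.41 CPM there, all above the controls and close to each other, and replicate 4 lay within the other 3. The log2 change was 1.73 (SE 0.38, edgeR adjusted p = 0.0188). It did not pass without control replicate 1 (1.64, edgeR adjusted p = 0.0722), without control replicate 3 (1.63, edgeR adjusted p = 0.0702), with limma-voom (1.72, adjusted p = 0.0604), on the 8 libraries alone (1.75, edgeR adjusted p = 0.0602) and with plate row as a covariate (1.44, edgeR adjusted p = 0.918). Probe 77278 stood at 0.277 to 1.24 CPM in the 3 mg/kg livers, overlapping with the controls (0.92, SE 0.58, edgeR adjusted p = 0.553).

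Abcc2 (chr19:43782192-43840740, plus strand), the canalicular pump for bilirubin glucuronides and glutathione conjugates, rose on its most abundant probe. Probe 72357 had 312, 478, 522 and 703 CPM in the 6 mg/kg livers, against 143, 165, 171 and 219 CPM in the controls. The groups did not overlap, and replicate 4 was again the highest. The log2 change was 1.53 (SE 0.21, edgeR adjusted p = 3.41e-05). This was the single member call at 6 mg/kg that held with plate row as a covariate (1.78, edgeR adjusted p = 0.0292). The plate row term rests on 1 liver, replicate 4 at 0.3 mg/kg, so that fit is a weak check on plate row. At 3 mg/kg the log2 change was 0.47 (SE 0.21, edgeR adjusted p = 0.364), with livers at 195 to 333 CPM.

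Abcb11 (chr2:69238282-69342616, minus strand), the bile salt export pump, showed no called change. Probe 29712 had 1369, 1374, 1445 and 1565 CPM in the 6 mg/kg livers, against 1148, 1564, 1591 and 1680 CPM in controls. The 6 mg/kg values lay inside the range of the controls. The log2 difference was -0.06 (SE 0.14, edgeR adjusted p = 0.806), and that of probe 70291 was -0.32 (SE 0.17, edgeR adjusted p = 0.179). Without both livers that stood apart, probe 70291 was called lower at -0.39 (edgeR adjusted p = 0.0427), while probe 29712 was at -0.02 (edgeR adjusted p = 0.906).

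Abcg2 (chr6:58584523-58695676, plus strand), a canalicular pump for urate and sulfated conjugates, had lower values on its most abundant probe without passing the test. Probe 77190 had 46.7, 50.3, 56.9 and 60.9 CPM in the 6 mg/kg livers, against 85.8, 117, 132 and 192 CPM in controls. The groups did not overlap, as for 13.6% of all probes in that direction. The log2 difference was -1.29 (SE 0.66, edgeR adjusted p = 0.168). In the 3 mg/kg group, replicate 4 had 1.43 CPM on this probe and the other 3 livers had 107 to 137 CPM. With that liver left out of the fit, the 6 mg/kg difference was -1.28 and was called (edgeR adjusted p = 0.00142), as on the 8 libraries of the comparison alone (-1.29, edgeR adjusted p = 0.00154). Probes 31832 and 76782 were at -0.57 (SE 0.28, edgeR adjusted p = 0.158) and 0.09 (SE 0.21, edgeR adjusted p = 0.791).

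Slco1b2 (chr6:141629518-141686646, plus strand), the main carrier of unconjugated bile acids and many drugs into mouse hepatocytes, fell on both probes. Probe 75250 had 234, 632, 645 and 655 CPM in the 6 mg/kg livers, against 907, 1062, 1062 and 1162 CPM in controls. The groups did not overlap, and replicate 4 was far below the other 3. The log2 change was -0.95 (SE 0.22, edgeR adjusted p = 0.00448), about 0.517 of the control level, and -0.72 without that liver (edgeR adjusted p = 0.000656). Probe 30657 fell to 213 ± 71.0 CPM at 6 mg/kg, against 335 ± 34.6 CPM in controls (SD, n = 4 each), a change of -0.66 (SE 0.19, edgeR adjusted p = 0.0199). Leaving out control replicate 3 ended this call (-0.59, edgeR adjusted p = 0.0517). At 3 mg/kg the changes were -0.16 (SE 0.22, edgeR adjusted p = 0.802) on probe 75250 and -0.12 (SE 0.19, edgeR adjusted p = 0.837) on probe 30657.

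Slco1a4 (chr6:141805440-141856199, minus strand), an uptake carrier for bile acids and cardiac glycosides, rose at 6 mg/kg. Probe 67677 had 27.2, 47.1, 77.1 and 79.7 CPM there, against 11.1, 17.3, 19.3 and 19.3 CPM in controls. The groups did not overlap, and replicate 4 was the lowest of the 6 mg/kg livers. The log2 change was 1.78 (SE 0.37, edgeR adjusted p = 0.00234). Probe 78671 averaged 35.6 ± 8.74 CPM at 6 mg/kg and 12.9 ± 3.05 CPM in controls (SD, n = 4 each), with no overlap, and at 1.46 (SE 0.54) it missed the threshold (edgeR adjusted p = 0.0612). It passed without replicate 4 at 3 mg/kg (1.48, edgeR adjusted p = 9.09e-06), where it had 0.381 CPM against 14.0 to 26.6 CPM in the other 3 livers. Slco1a1 and Slco1a4 lie side by side and share stretches of sequence with Slco1a5, Slco1a6 and each other. Of the 50-base windows of their transcripts, 2.26% for Slco1a1 and 2.73% for Slco1a4 occur in another gene, and the positions of the probes were not used here, so these 2 genes are reported as uncertain.

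Slco1a1 (chr6:141907282-141946962, minus strand), an organic anion carrier typical of male mouse liver, had 8.04, 10.1, 22.1 and 22.5 CPM in the 6 mg/kg livers, against 15.5, 21.2, 29.2 and 37.1 CPM in controls. The groups overlapped, and the spread within every group was wide. The log2 difference was -0.71 (SE 0.55, edgeR adjusted p = 0.376). At this SE a change of this size was not detectable.

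Slc10a1 (chr12:80953183-80968705, minus strand), the sodium-dependent carrier that takes up conjugated bile acids, had no called change against control in the edgeR fit to all libraries. Its probe 31687 had a called upward slope over dose rank. Probe 58600 had 229, 291, 304 and 310 CPM in the 6 mg/kg livers, against 252, 274, 278 and 281 CPM in controls. The groups overlapped, and replicate 4 was the lowest of the 6 mg/kg livers. The log2 difference was 0.06 (SE 0.13, edgeR adjusted p = 0.759). Probe 31687 was at 0.30 (SE 0.13, edgeR adjusted p = 0.11), and passed without replicate 4 at 6 mg/kg (0.39, edgeR adjusted p = 0.0335), without replicate 4 at 3 mg/kg (0.32, edgeR adjusted p = 0.044) and without both (0.42, edgeR adjusted p = 0.00234). At 3 mg/kg that probe had 290, 294, 319 and 393 CPM, all above the controls at 223 to 241 CPM, with a log2 difference of 0.49 (SE 0.13, edgeR adjusted p = 0.0765). It passed with DESeq2 (0.49, adjusted p = 0.0134), without replicate 4 at 6 mg/kg (0.50, edgeR adjusted p = 0.0229) and without both livers that stood apart (0.38, edgeR adjusted p = 0.0367), but not without replicate 4 at 3 mg/kg alone (0.38, edgeR adjusted p = 0.20).

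Slco2b1 (chr7:99657804-99711340, minus strand), an uptake carrier of sulfated steroids, differed by probe. Its most abundant probe, 29172, had 98.2, 124, 149 and 164 CPM in the 6 mg/kg livers, against 114, 127, 181 and 215 CPM in controls. These groups overlapped, with a log2 difference of -0.25 (SE 0.21, edgeR adjusted p = 0.419), and probe 70355 was at -0.34 (SE 0.42, edgeR adjusted p = 0.586). The sparse probe 80312 had 2.96, 3.60, 3.72 and 3.78 CPM at 6 mg/kg (25 to 36 counts), against 0.624, 0.649, 0.704 and 1.73 CPM in controls (5 to 16 counts). It rose by 1.87 (SE 0.44, edgeR adjusted p = 0.00455), and it was the member with an unadjusted p under 0.05 at 0.03 mg/kg (log2 difference 1.02, SE 0.45, edgeR adjusted p = 1).

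**Figure D2:**
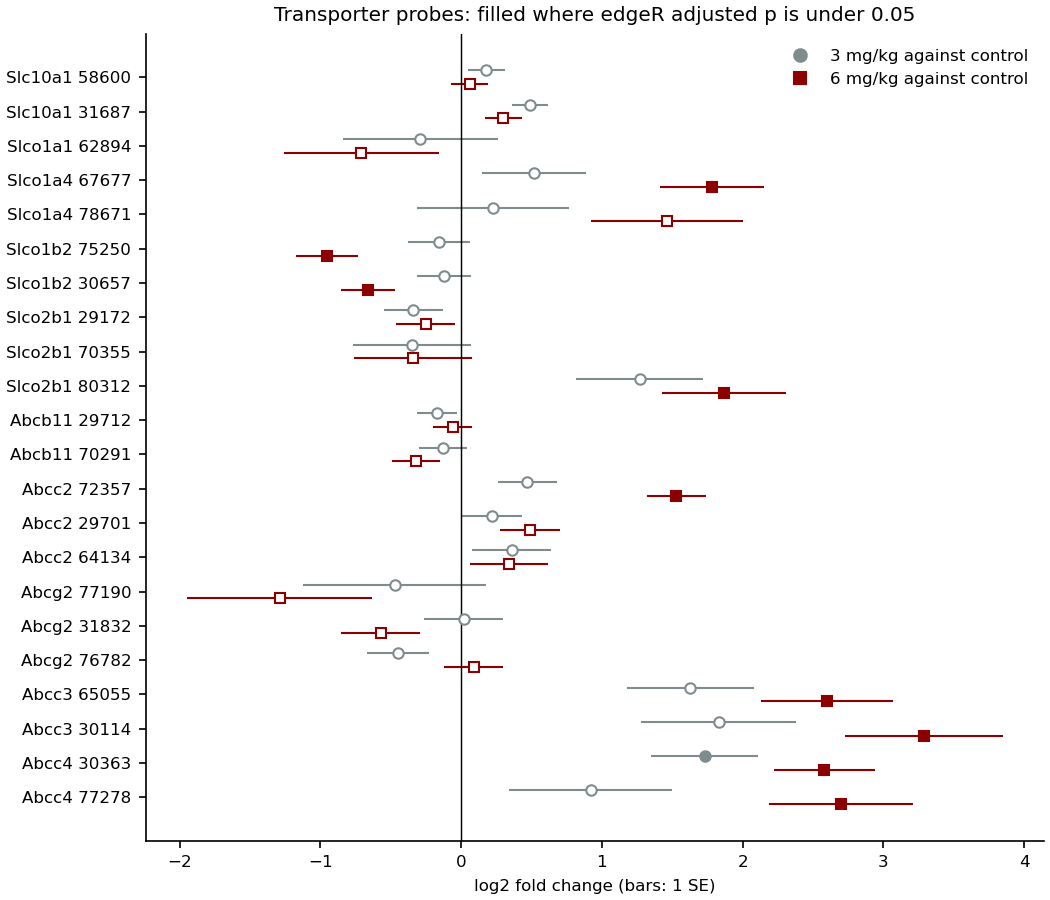
The log2 fold change of each tested transporter probe against control (horizontal axis, bars of 1 SE) at 3 mg/kg (circles) and 6 mg/kg (squares), filled where the edgeR adjusted p is under 0.05. The 4 probes of Abcc3 and Abcc4 lie between 2.58 and 3.29 at 6 mg/kg, and both Slco1b2 probes lie below 0. The Abcc4 probes passed the filter on low counts only through the high-dose livers. The size of the change on Abcc4 probe 77278 is uncertain, since it had 2 to 4 counts in controls. Both contrasts use the same controls.

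Between the 2 high doses, 4 of the 22 probes passed, 3 higher and 1 lower at 6 mg/kg, against 6.73% of all probes (3.96% higher and 2.77% lower). All of these libraries lay in plate row B. Abcc2 probe 72357 was higher at 6 mg/kg than at 3 mg/kg by 1.06 (SE 0.21, edgeR adjusted p = 0.00532), and its call held in every fit that left out 1 library. Abcc4 probe 77278 was higher by 1.79 (SE 0.47, edgeR adjusted p = 0.0252) and Slco1a4 probe 67677 by 1.26 (SE 0.37, edgeR adjusted p = 0.044), and Slco1b2 probe 75250 was lower, at -0.79 (SE 0.22, edgeR adjusted p = 0.0356). Abcc4 probe 77278 passed the filter on low counts only through the 6 mg/kg livers, so the filter itself favoured its rise here. Of the 20 fits that left out 1 library, the call was lost in 5 for Abcc4, in 12 for Slco1a4 and in 3 for Slco1b2. Fitted on the 8 libraries alone, none of the 22 passed.

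The Abcc3 step between these doses depended on the livers that stood apart. With all libraries, probe 65055 was higher at 6 than at 3 mg/kg by 0.97 (SE 0.44, edgeR adjusted p = 0.189). Without replicate 4 at 3 mg/kg the difference was 1.93 (edgeR adjusted p = 0.000441), without replicate 4 at 6 mg/kg it was 0.38 (edgeR adjusted p = 0.681), and without both livers that stood apart it was 1.37 (edgeR adjusted p = 2.98e-06). Probe 30114 was higher by 1.46 (SE 0.50, edgeR adjusted p = 0.0853) with all libraries, and the difference was 2.67, 0.85 and 2.10 in the same 3 fits, called in the first and the last. Without both, 10 of the 22 probes passed between these doses, 7 higher and 3 lower at 6 mg/kg, and against control 14 passed at 6 mg/kg (10 higher, 4 lower) and 4 at 3 mg/kg (all higher). Over all probes that fit called 2478 between these doses, against 950 with all libraries, 3961 at 6 mg/kg, against 2867, and 379 at 3 mg/kg, against 211.

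Over the rank of the 5 doses, 9 of the 22 probes had a slope that passed, 8 upward and 1 downward, against 18.0% of all probes (11.3% upward and 6.72% downward). The slope per dose step was 0.88 (SE 0.15) and 0.78 (SE 0.10) for the 2 Abcc4 probes, 0.83 (SE 0.12) and 0.65 (SE 0.10) for the 2 Abcc3 probes, 0.41 (SE 0.08) for Slco1a4 probe 67677 and 0.33 (SE 0.05) for Abcc2 probe 72357. The filter on low counts favoured the Abcc4 slopes, since these probes passed it only through the high-dose livers. The size of the larger Abcc4 slope, on probe 77278, is uncertain, since that probe had 2 to 4 counts in controls. Slco1b2 probe 75250 had the downward slope, -0.19 (SE 0.06, edgeR adjusted p = 0.0273). This call was lost in 4 of the 20 fits that left out 1 library, and no downward slope passed over log10 dose. The smallest of the upward slopes was that of Slc10a1 probe 31687, 0.10 (SE 0.03, edgeR adjusted p = 0.0407), which was lost in 11 of those 20 fits and was -0.01 with plate row as a covariate (edgeR adjusted p = 0.969).

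Probes of 1 gene did not always move alike. The log2 ratio of each other probe to the most abundant probe of its gene was compared between 6 mg/kg and control in 12 pairs of probes, a test chosen after the values were seen. Of these ratios 8 differed at the smallest p that 70 splits of 4 against 4 allow (exact two-sided permutation test, p = 0.0286, 0.0429 after adjustment over the 12). The adjusted value follows from the number of ratios tied at that floor. Ratios were not computed for other genes, so the count cannot be called particular to the transporters. For Abcc2, the ratios of probes 29701 and 64134 to probe 72357 changed by -1.0 and -1.13 log2 units. Probe 29701 had 57.5, 65.0, 69.3 and 75.5 CPM at 6 mg/kg, against 41.4, 44.9, 50.4 and 53.2 CPM in controls, which did not overlap, at 0.49 (SE 0.21, edgeR adjusted p = 0.0989). It was called higher without replicate 4 at 3 mg/kg (0.51, edgeR adjusted p = 0.00675), without both livers that stood apart (0.57, edgeR adjusted p = 0.00202) and on the 8 libraries alone (0.50, edgeR adjusted p = 0.0285), and was at -0.03 with plate row as a covariate (edgeR adjusted p = 0.977). Probe 64134 overlapped, at 0.34 (SE 0.28, edgeR adjusted p = 0.395). Slco2b1 probe 80312 changed by 1.78 log2 units more than probe 29172, and Abcg2 probe 76782 by 1.32 more than probe 77190. The Abcc3 pair differed by 0.55 and the Slco1b2 pair by 0.33, with both probes of each gene called in the same direction. The ratios for Abcc4 (-0.14, adjusted p = 0.655) and for Slco1a4 (-0.23, adjusted p = 0.446) did not pass in the exact permutation test. Which transcripts or exons the probes read was not used here.

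**Figure D3:**
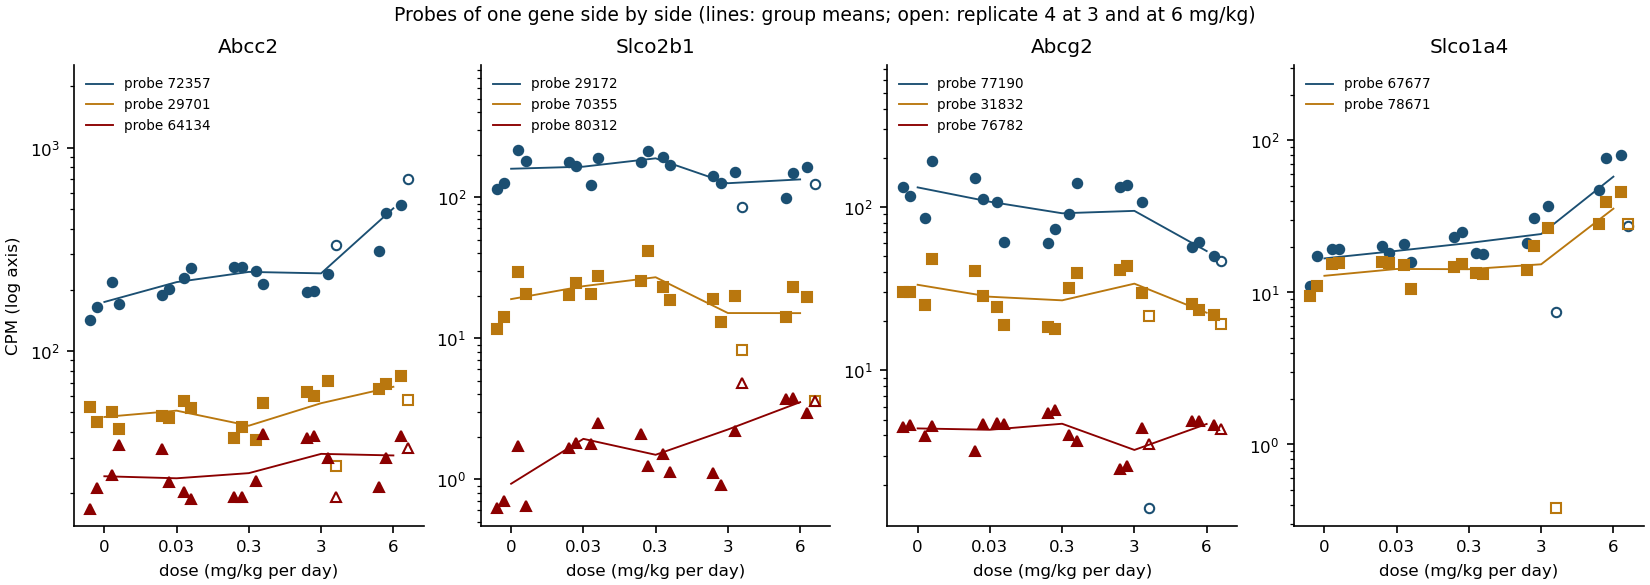
The CPM of every tested probe of Abcc2, Slco2b1, Abcg2 and Slco1a4 (vertical axes, log scale) by dose in mg/kg per day, with 1 point per liver, lines through group means and open points for replicate 4 at 3 and at 6 mg/kg. Abcc2 probe 72357 separates 6 mg/kg from control while probe 64134 overlaps, and Slco2b1 probe 80312 rises where probe 29172 overlaps.

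Replicate 4 at 3 mg/kg lay outside the other 3 livers of its group on 20 of the 22 probes, above on 7 and below on 13. The share over all probes was not counted, for this liver or for replicate 4 at 6 mg/kg. On any probe the highest and the lowest liver of a group lie outside the others. Replicate 4 at 3 mg/kg also stood apart over all probes (mean correlation with its group 0.87), so these counts cannot be called particular to the transporters. This liver had 0.0114 of the mean of the others on Abcg2 probe 77190, 0.0188 on Slco1a4 probe 78671, 0.0971 on Slco1a1 and 0.249 on Slco1a4 probe 67677, against 4.60 and 5.86 times that mean on the 2 Abcc3 probes. On the same gene Abcg2, probes 31832 and 76782 were at 0.566 and 1.11 of the mean of the others in this liver. Replicate 4 at 6 mg/kg lay above the other 3 on 5 probes, below on 10 and within on 7, with 2.88 and 2.92 times their mean on the Abcc3 probes and 0.362 and 0.431 on the Slco1b2 probes.

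The other transporters, scaffold proteins and regulators of the same liver pathways were read through their most abundant probes. None of these 3 lists had a call at 0.03, 0.3 or 3 mg/kg by edgeR. Of 21 other hepatic transporters tested at 6 mg/kg, 3 rose and 4 fell (median log2 change 0.09), against 20.5% of all genes called. Abcb1a, a canalicular drug efflux pump, averaged 26.3 ± 6.87 CPM at 6 mg/kg and 9.58 ± 1.90 CPM in controls (SD, n = 4 each), at 1.46 (SE 0.22, edgeR adjusted p = 8.05e-05). Slc22a5, a carnitine carrier, rose by 1.73 (SE 0.49) and Abcc6 by 1.38 (SE 0.46). Slc22a7, a basolateral organic anion carrier, fell to 0.237 to 1.08 CPM at 6 mg/kg, against 1.87 to 6.25 CPM in controls, at -2.41 (SE 0.45, edgeR adjusted p = 0.000712). Its lowest value lay under 3 counts, which correspond to 0.3 to 0.365 CPM in the 6 mg/kg libraries, so the size of this fall is uncertain. Slc51b, a subunit of the basolateral bile acid exporter OST, fell to 1.85 ± 0.733 CPM, against 5.89 ± 3.23 CPM (SD, n = 4 each), at -1.66 (SE 0.44, edgeR adjusted p = 0.0106). Slc51a, also on this list, had at most 3 counts per library on average. Atp8b1, a canalicular phospholipid flippase, was at -0.70 (SE 0.20, edgeR adjusted p = 0.017). Of 10 apical scaffold and trafficking genes 2 rose, Slc9a3r1 by 0.74 (SE 0.19) and Vps33b by 2.01 (SE 0.52), and 0 fell.

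Of 19 regulators of transporter genes, at 6 mg/kg 5 were called higher and 2 lower (median log2 change 0.08), against 20.5% of all genes called. Nfe2l2, which encodes NRF2, rose by 1.07 (SE 0.22, edgeR adjusted p = 0.00161), with 17.4 to 27.8 CPM at 6 mg/kg, against 7.44 to 13.1 CPM in controls. Ahr, the aryl hydrocarbon receptor, rose by 2.23 (SE 0.39), Nr1i2, which encodes PXR, by 0.75 (SE 0.18), and Nr0b2, which encodes the repressor SHP, by 1.36 (SE 0.38). Ppara fell by 0.81 (SE 0.17) and Nr1h2 fell by 0.39 (SE 0.12) on the log2 scale. Nr1h4, which encodes the bile acid receptor FXR, was at -0.20 (SE 0.13, edgeR adjusted p = 0.269), Nr1i3, which encodes CAR, at -0.58 (SE 0.21, edgeR adjusted p = 0.0608), and Hnf4a at -0.15 (SE 0.26, edgeR adjusted p = 0.709).

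The livers carried hepatocyte markers. Of 10 listed, 9 were in the count table and all 9 were tested, with a median log2 change of -0.13 at 6 mg/kg. Their summed level was 17599 to 23709 CPM at 6 mg/kg, against 28727 to 35704 CPM in controls, with 1 marker higher (Tat) and 2 lower (Alb and Fgb). The marker counts in these lists stand against 20.5% of all genes called. Sums over probes lean on the most abundant ones. The summed stellate cell markers were at 116 to 159 CPM, against 195 to 227 CPM, with 1 of 8 higher and 4 lower, and the Kupffer cell markers at 86.8 to 140 CPM, against 136 to 194 CPM, with 1 of 8 lower. Endothelial markers were at 122 to 158 CPM, against 121 to 140 CPM, with 1 of 7 higher, and lymphocyte and neutrophil markers at 4.30 to 5.88 CPM, against 5.97 to 14.5 CPM, with 2 of 5 lower. Of 7 cholangiocyte markers 1 could be tested and was not called, and Krt19, Epcam, Sox9, Cftr and Cldn7 had at most 3 counts per library on average. Erythroid markers had a median of 16.9 CPM, against 18.4 CPM, with 1 of 2 tested higher (Alas2). Exocrine pancreas markers were at 6.30 to 9.50 CPM, against 3.88 to 6.61 CPM, with 1 of 2 tested higher (Pnliprp1) and 1 lower (Cela1). No kidney tubule marker reached the filter, and Umod was listed at 0. The part of these shifts in the transporter results was not tested.

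Among the genes whose pattern over the 20 libraries was most like that of Abcc3 probe 65055 were Pcgf3 (Pearson r 0.984) and Me1, the cytosolic malic enzyme (0.971), out of 4577 probes with a mean of at least 20 CPM. Me1 averaged 138 CPM at 6 mg/kg and 46.8 CPM in controls and had 120 CPM in replicate 4 at 3 mg/kg. Among those most like Abcg2 probe 77190, the member with the largest negative estimate, were Zmym2 (0.989) and Mtmr2 (0.988). Zmym2 had 6.01 CPM and Mtmr2 1.14 CPM in replicate 4 at 3 mg/kg, against control means of 90.4 CPM for Zmym2 and 33.2 CPM for Mtmr2. The likeness therefore includes the livers that stood apart.

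Livers of the same dose also differed among themselves. At 0.3 mg/kg, replicate 4 had 38.6 CPM of Slco1a1 and 141 CPM of Abcg2 probe 77190, the highest of its group, and 264 CPM of Slc10a1 probe 58600, the lowest. Replicate 1 at 0.03 mg/kg had 37.5, 150 and 249 CPM of the same 3 probes, and control replicate 4 had 37.1, 192 and 252 CPM, again the highest, the highest and the lowest of their groups. Of these 3 livers, 1 lay in plate row B (0.3 mg/kg) and 2 in row A. As a description over 18 libraries, each set against its group mean and without the 2 that stood apart, Slco1a1 and Abcg2 probe 77190 had r = 0.84 and Slc10a1 probe 58600 and Abcg2 probe 31832 had r = -0.90. These were among the 10 of 231 pairs of member probes with r of at least 0.75 in size and were picked for it. The relation of Slc10a1 to Abcg2 depended on the probe. Slc10a1 probe 58600 had r = -0.79 with Abcg2 probe 77190 but r = 0.83 with Abcg2 probe 76782, also among the 10. Slc10a1 probe 31687 had r = -0.03 with Abcg2 probe 31832. Slco1a1 had r = -0.37 with Abcg2 probe 76782.

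**Figure D4:**
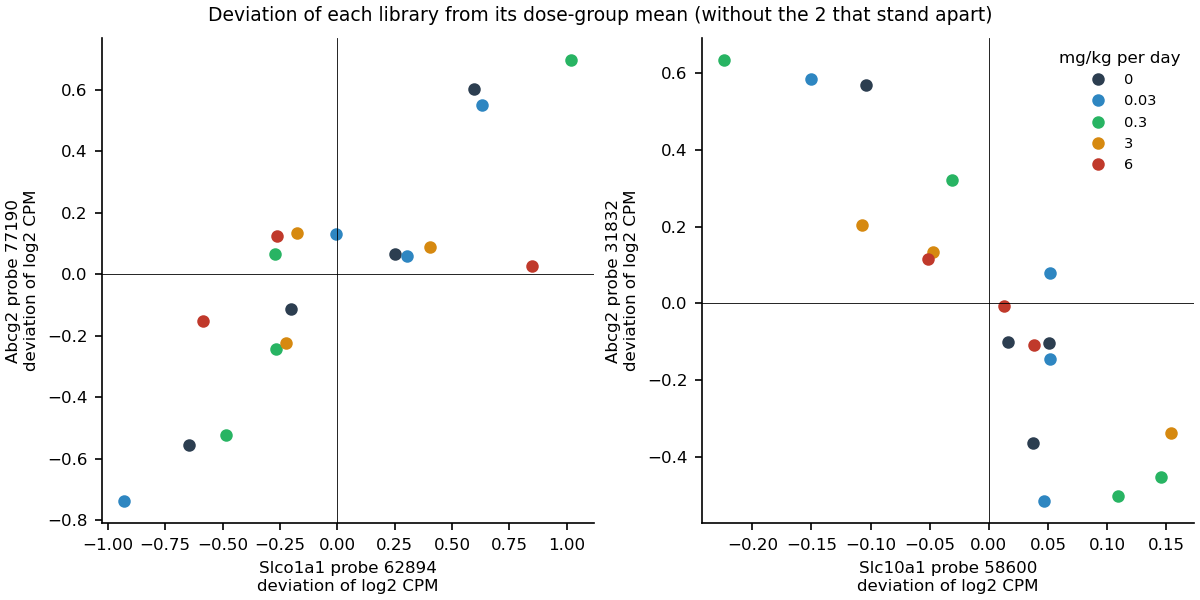
The deviation of log2 CPM from the dose-group mean in 18 libraries, coloured by dose in mg/kg per day, for Slco1a1 against Abcg2 probe 77190 (left) and Slc10a1 probe 58600 against Abcg2 probe 31832 (right). Livers of 1 dose spread along a rising band on the left (r = 0.84) and a falling band on the right (r = -0.90). With Abcg2 probe 76782 in place of 31832, Slc10a1 probe 58600 had r = 0.83.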

How the data were processed

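Liver RNA of 20 mice was measured with TempO-Seq. The table holds raw counts per probe as deposited by the authors, 1 column per mouse, and 0 columns were without a sample. Bowtie and GRCm38.p5 are named per the submitters' processing notes, and the version of Bowtie and its settings are not given here. Groups and plate rows come from the labels, which give replicates no number, so replicates were numbered in accession order. Chi-square divided by degrees of freedom was at least 4.04 in the 30 pairs of libraries within groups, so none was treated as a copy.

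In edgeR 4.0.16 (R 4.3.3), filterByExpr kept 14122 of 30146 probes, with 99.8% of the counts. Libraries were scaled by the trimmed mean of M values. A robust quasi-likelihood model with 1 mean per group was fitted to all 20 libraries and Benjamini-Hochberg adjustment ran over all probes (threshold 0.05). Each SE is the size of the log2 fold change divided by the square root of F. Contrasts of each dose with control share the 4 controls. P-values measure the spread between individual mice. Intervals and floors of 3 counts cover counting error only. The probe with the highest mean count is a gene's main probe. The fitting step was tested on simulated data.

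The members, lists and tests were chosen with earlier results of these data known. Named were all members, up to 3 genes per direction of each other list with the smallest p at 6 mg/kg, 7 receptors and regulators whatever their values, and the genes most alike in pattern to 2 members. Some genes that this rule names are not reported here. Alternatives were other scalings and filters, DESeq2 1.42.0, limma-voom (limma 3.58.1), summing probes per symbol, a fit that is not robust, the 8 libraries compared, other dose scales, plate row, and each library left out. The fit without both livers that stand apart was chosen after seeing the data. Gene coordinates are from GENCODE M21 (GRCm38), promoters from RefSeq (GRCm38.p6). The log2 ratios of probes used a pseudocount of 0.5 CPM.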

Additional observations from a re-analysis of the deposited data

Results flagged for a closer look

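Of 110 groups of 4 livers, 12 held a liver whose gap to the nearest other, divided by the range of the group, passed the 95% limit of Dixon's test, and chance flags about 1 in 20 groups. Of these 12, 3 were replicate 4 at 6 mg/kg. It had 222 CPM of Slc10a1 probe 31687, against 303 to 312 CPM in the other 3 livers, 234 CPM of Slco1b2 probe 75250, against 632 to 655 CPM, and 107 CPM of Slco1b2 probe 30657, against 238 to 257 CPM. Another 2 were replicate 4 at 3 mg/kg, with 223 CPM of Abcc3 probe 65055, against 43.9 to 53.0 CPM, and 34.0 CPM of Abcc3 probe 30114, against 5.07 to 6.81 CPM.

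The other 7 fell in the lower groups. Replicate 4 at 0.3 mg/kg had 38.6 CPM of Slco1a1, against 13.5 to 15.7 CPM in the other 3 livers of its group, and replicate 3 had 49.9 CPM of Abcc3 probe 65055, against 41.1 to 42.2 CPM. Replicate 1 at 0.03 mg/kg had 249 CPM of Slc10a1 probe 58600, against 286 to 287 CPM, and 3.22 CPM of Abcg2 probe 76782, against 4.67 to 4.76 CPM. Replicate 4 at 0.03 mg/kg had 10.5 CPM of Slco1a4 probe 78671, against 15.2 to 15.8 CPM, and 2.50 CPM of Slco2b1 probe 80312, against 1.66 to 1.79 CPM. Control replicate 3 had 1.73 CPM of Slco2b1 probe 80312, against 0.624 to 0.704 CPM.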

How the results depend on the processing

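No paired analysis was made, since each library comes from a different mouse. For 3 mg/kg against control the count of member probes called was 1, and it was 4 with DESeq2, 0 with limma-voom, 0 with plate row as a covariate, 0 on the 8 libraries alone, 4 without both livers that stand apart, and 0 to 2 with 1 library left out. For 6 mg/kg against control it was 9, and it was 1 with plate row, 14 without both livers, 5 genes with probes summed per symbol, and 8 to 13 with 1 library left out. For 6 against 3 mg/kg it was 4, and it was 0 on the 8 libraries alone, 10 without both livers, and 1 to 10 with 1 library left out, the 10 without replicate 4 at 3 mg/kg. For the slope it was 9, and it was 5 genes when summed per symbol, 1 with plate row, and 7 to 12 with 1 library left out. At 0.03 and 0.3 mg/kg it was 0 in every fit that left out 1 library. Calls over all probes also moved widely in the fits that left out 1 library. They were 124 to 279 at 3 mg/kg, 2120 to 4461 at 6 mg/kg, 302 to 3105 for 6 against 3 mg/kg and 1883 to 3014 for the slope. Such counts are not given here for DESeq2 and for probes summed per symbol. The causes were not tested. Over all probes, plate row gave 508 calls at 6 mg/kg, against 2867, and 1 at 3 mg/kg, against 211, and the 8 libraries alone gave 11 for 6 against 3 mg/kg, against 950, and 44 at 3 mg/kg. The slope of Slc10a1 probe 31687 turned to -0.01 with plate row. Of 3178 estimates called in neither fit, 88 changed sign. Scaling by total counts moved the median of all probes to 0.15 at 6 mg/kg and 0.16 at 0.3 mg/kg. Probes of few counts, such as those of Abcc4, limit what the lower doses can show.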
